A study of Mus musculus with 30 samples.

Results

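The 10 genes Clec4f, Cd5l, Marco, Vsig4, Timd4, Adgre1 (also Emr1), Cd68, Lyz2, Csf1r and C1qa were taken as markers of Kupffer cells and of macrophages in general, and each array probe whose RefSeq transcript belongs to one of them was followed. Of the 10 genes, 9 had at least 1 probe and were tested, among 12225 named genes tested in all. Together they have 13 probes, of which 12 were among the 23607 tested of 41174 on the array. Cd68 was not analysed here, since no probe accession was matched to it in the RefSeq table used. Liver RNA came from female C57BL/6 mice, 5 to 6 weeks old when acquired, with 1 array per animal. The 14 exposed mice had received 0.162 mg of Printex 90, a carbon black nanomaterial, by intratracheal instillation of 40 µl of suspension followed by 150 µl of air. The suspension was made in 0.9% NaCl with 10% acellular lavage fluid of C57BL/6 mice. The treatment of the 16 control mice is labelled only as none, so the labels do not say whether they received the vehicle.

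In each group the animals carry numbers that form 3 runs, separated by gaps; what such a run stands for is not given. Exposed run 1 holds animals 176 to 180 (n = 4), run 2 animals 193 to 197 (n = 5) and run 3 animals 212 to 216 (n = 5). Control run 1 holds animals 547 to 552 (n = 6), run 2 animals 570 to 575 (n = 5) and run 3 animals 595 to 600 (n = 5). No label matches a run of one group to a run of the other. Levels are log2 ratios of the liver signal (Cy5) over a universal mouse reference RNA (Cy3) on the same spot, so a level is set against the same probe on other arrays and never against another probe. Median Cy5 signals per array were 103 to 160 on exposed arrays and 106 to 192 on control arrays. Exposed animals occupied positions 3 and 4 of a slide and controls positions 1 and 2, so position and exposure cannot be told apart. Exposed run 1 lay in position 3 and exposed run 3 in position 4 throughout. Control run 1 lay in position 1 and control run 3 in position 2 throughout. Only run 2 of each group held both positions of its group, so run and position can hardly be told apart either.

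Kupffer cells are the macrophages that reside in the sinusoids of the liver, where they take up particles, microbes, dying cells and old red blood cells from the blood. They depend on signalling through the CSF1 receptor and can be replaced by monocytes that enter the liver. Clec4f, Timd4, Vsig4, Cd5l and Marco are characteristic of the resident cells in mice, while Adgre1, Lyz2, Csf1r and C1qa are shared with other macrophages. In whole liver RNA, fewer cells of a type and less RNA per cell cannot be told apart.

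Promoters of the markers are shown because the levels of the genes moved together among animals, as described below. Promoters from the RefSeq promoter table (GRCm38.p6) were searched for 7 of the 10 genes, Cd68 among them. Those of Adgre1, Csf1r and C1qa were not searched, so the count below does not cover them. The 250 bases before the gene start were searched on both strands for GGAAGT, a core shared by sites of ETS family factors such as PU.1, the product of Spi1 and a regulator of macrophage genes. The motif was found in 4 of the 7, and in 20.0% of the 27025 promoters of the table. These 4 are given 5′ to 3′ on the strand of the gene, with the motif in capitals (ACTTCC where it lies on the other strand), for Clec4f at chr6:83656117-83656366 (minus strand), Vsig4 at chrX:96293439-96293688 (minus strand), Timd4 at chr11:46810549-46810798 (plus strand) and Lyz2 at chr10:117282273-117282522 (minus strand).
Clec4f: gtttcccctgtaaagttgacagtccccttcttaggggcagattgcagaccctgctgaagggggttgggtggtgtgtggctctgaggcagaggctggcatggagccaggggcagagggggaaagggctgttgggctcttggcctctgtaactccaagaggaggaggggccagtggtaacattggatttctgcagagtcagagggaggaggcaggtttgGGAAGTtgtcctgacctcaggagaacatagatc
Vsig4: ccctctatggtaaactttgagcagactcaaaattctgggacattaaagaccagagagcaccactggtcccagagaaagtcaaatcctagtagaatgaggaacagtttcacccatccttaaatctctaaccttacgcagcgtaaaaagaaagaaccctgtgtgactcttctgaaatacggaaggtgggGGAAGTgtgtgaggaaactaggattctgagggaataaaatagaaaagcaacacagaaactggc
Timd4: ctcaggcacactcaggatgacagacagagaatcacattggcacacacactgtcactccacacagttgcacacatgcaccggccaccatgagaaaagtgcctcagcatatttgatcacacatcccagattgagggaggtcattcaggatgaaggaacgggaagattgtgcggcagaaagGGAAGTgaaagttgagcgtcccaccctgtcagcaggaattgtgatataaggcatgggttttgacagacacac
Lyz2: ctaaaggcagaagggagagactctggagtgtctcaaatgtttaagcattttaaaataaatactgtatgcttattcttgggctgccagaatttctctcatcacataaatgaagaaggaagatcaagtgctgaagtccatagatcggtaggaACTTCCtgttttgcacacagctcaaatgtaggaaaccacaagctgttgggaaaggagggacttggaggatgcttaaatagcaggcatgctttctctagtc
The motif lies 33 bases before the gene start in Clec4f, 63 in Vsig4, 72 in Timd4 and 100 in Lyz2. The windows of Cd5l, Marco and Cd68 do not hold these letters. A match describes the sequence only, and binding was not measured. Whether the motif has any part in the shared movement of the levels was not tested.

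All 9 genes were detected in liver, with Cy5 well above background on 30 of 30 arrays at the probe that represents each gene, chosen as the brightest in Cy5 of those tested. A second Adgre1 probe, A_52_P364727, exceeded background clearly in 4 of 30 livers and stayed out of the tests. The reference RNA was dim for some of the genes. Cy3 was well above background on 7 of 30 arrays for Timd4, on 18 for Vsig4 and on 26 for C1qa, so their ratios rest on a weak denominator.

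None of the genes most characteristic of resident Kupffer cells passed the test between exposed and control livers. Clec4f, a C-type lectin made almost exclusively by Kupffer cells in mice, had log2 ratios between 4.39 and 5.71 (median 5.19) in exposed livers and between 4.45 and 6.00 (median 5.37) in control livers. The groups overlapped over nearly the whole range. The difference of Clec4f was -0.09 ± 0.12 (log2, SE; adjusted p = 0.813 by limma's moderated test with Benjamini-Hochberg adjustment over 23607 probes). Cd5l, a secreted protein of macrophages that affects their survival and lipid handling, lay between 5.75 and 7.23 (median 6.58) in exposed livers and between 5.74 and 7.46 (median 6.64) in control livers. The difference of Cd5l was -0.06 ± 0.15 (adjusted p = 0.909).

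Vsig4, a complement receptor that lets Kupffer cells catch circulating microbes, lay between 2.97 and 4.63 (median 3.88) in exposed livers and between 2.48 and 4.59 (median 3.89) in control livers. Both groups spread over more than 1 log2 unit, and the difference of Vsig4 was 0.02 ± 0.17 (adjusted p = 0.977). Timd4, a receptor for phosphatidylserine on dying cells, lay between 0.57 and 2.48 (median 1.55) in exposed livers and between 1.03 and 2.68 (median 1.71) in control livers, a difference of -0.16 ± 0.15 (adjusted p = 0.708). Marco, a scavenger receptor that binds bacteria and particles, lay between 3.93 and 5.13 (median 4.35) in exposed livers and between 3.81 and 6.46 (median 4.26) in control livers. The difference of Marco was -0.22 ± 0.20 (adjusted p = 0.707), and its highest value stood in control animal 549.

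Of the genes shared among macrophages, Adgre1, which encodes the F4/80 antigen, had the smallest p of the 9. Adgre1 lay between 0.20 and 0.99 (median 0.58) in exposed livers and between 0.50 and 1.74 (median 0.90) in control livers, so that the upper controls lay above every exposed animal. Its difference of -0.31 ± 0.11 did not pass (unadjusted p = 0.00707 and adjusted p = 0.234 by limma), and the exposed mean was below the control mean on 6 of the 7 slides that held both groups. Lyz2, which encodes the lysozyme of macrophages and neutrophils, has 2 probes. At A_52_P238027 Lyz2 lay between 0.57 and 1.82 (median 1.18) in exposed livers and between 0.86 and 2.17 (median 1.53) in control livers (n = 15, since the spot of control animal 548 was an outlier and was left out). The difference there was -0.28 ± 0.13 (adjusted p = 0.375 by limma). At A_51_P321150, the dimmer probe of Lyz2, it was -0.03 ± 0.11 (adjusted p = 0.943).

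Csf1r, the receptor for the growth factors CSF1 and IL-34, has 3 probes. At the brightest, A_51_P365885, it lay between 0.49 and 1.25 (median 0.71) in exposed livers and between 0.31 and 1.23 (median 0.80) in control livers, a difference of -0.06 ± 0.08 (adjusted p = 0.830). At A_52_P570471, well above background on only 16 of 30 arrays, the difference was 0.04 ± 0.05, and at A_52_P602091 it was 0.06 ± 0.07. None of the 3 probes passed. C1qa, a chain of C1q, the protein that starts the classical complement pathway, lay between 2.99 and 4.5 (median 3.82) in exposed livers and between 3.01 and 4.51 (median 3.90) in control livers. The difference of C1qa was 0.01 ± 0.14 (adjusted p = 0.990).

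In this comparison 0 of 9 genes passed the threshold of 0.05 by limma, where 0.0169% of all tested probes passed (4 probes, all higher in exposed livers). At an unadjusted p under 0.05 there were 2875 probes in all, and 2 of the 9 genes, Adgre1 and Lyz2. The median difference of the 9 genes was -0.09, with 7 of 9 below 0. Over all 12225 genes the median was -0.00, with 50.4% below 0. In the reference channel, which holds the same RNA on every array, 0 of 9 genes differed between the positions of exposed and of control animals (limma, 0% of all tested probes). The smallest p there was that of Csf1r at A_51_P365885, with a Cy3 difference of -0.12 ± 0.04 (unadjusted p = 0.00424 and adjusted p = 0.839 by limma).

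**Figure D1:**
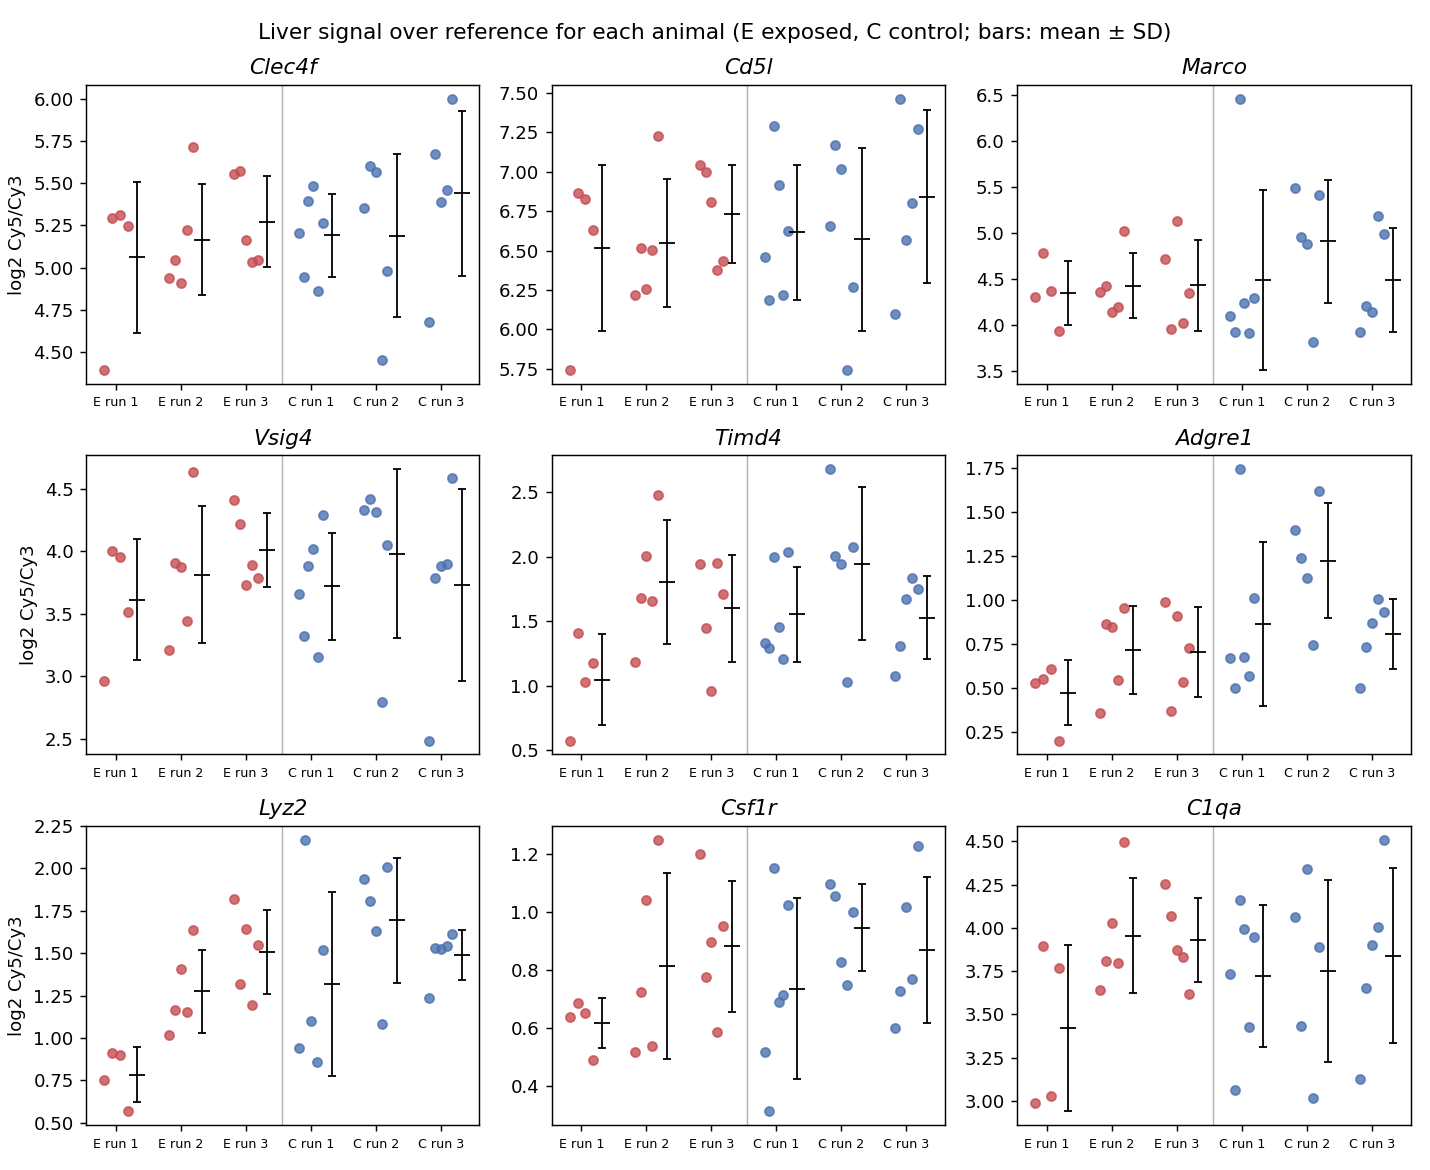
Log2 ratio of liver (Cy5) over reference (Cy3) for 9 marker genes, 1 point per animal, with exposed runs 1 to 3 left of control runs 1 to 3, and the mean ± SD of each run. The Lyz2 values of exposed run 1 lie between 0.57 and 0.91, below those of exposed runs 2 and 3, and overlap those of control run 1; y axes differ between genes.

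By run, Lyz2 was lower in exposed run 1 than in the control runs at 1 of its 2 probes. At A_52_P238027 animals 176, 177, 179 and 180 of exposed run 1 had 0.75, 0.91, 0.90 and 0.57. Exposed run 2 had 1.02, 1.16, 1.40, 1.15 and 1.64, and exposed run 3 had 1.82, 1.32, 1.64, 1.20 and 1.55. Exposed run 1 thus overlapped with neither of the other exposed runs. Control run 1 had 0.94, 2.17, 1.1, 0.86 and 1.52, control run 2 had 1.94, 1.81, 1.63, 1.08 and 2.01, and control run 3 had 1.23, 1.53, 1.53, 1.54 and 1.61. Exposed run 1 overlapped with control run 1 and with neither of the other control runs. The share of all tested probes without overlap between these runs was not counted. In a contrast of exposed run 1 with exposed runs 2 and 3, 4.81% of all tested probes were called lower and 1.8% higher by limma.

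Ordered by mean, Lyz2 stood at 0.78 ± 0.16 in exposed run 1, 1.28 ± 0.25 in exposed run 2, 1.32 ± 0.54 in control run 1, 1.49 ± 0.15 in control run 3, 1.51 ± 0.25 in exposed run 3 and 1.69 ± 0.37 in control run 2 (SD). From exposed run 2 upward, neighbours in this order differ by less than the larger of their SDs. The fitted Lyz2 difference of exposed run 1 from the average of the control runs was -0.72 ± 0.16 (log2, SE), which is 1.65-fold lower (adjusted p = 0.00835 by limma). Lyz2 was thus 1 of 9 genes called in exposed run 1, where 3.19% of all tested probes were lower and 1.6% higher at the same threshold, 4.8% in all. The dimmer probe, A_51_P321150, had 0.51, 0.89, 0.75 and 0.50 in exposed run 1, and its difference of -0.24 ± 0.15 did not pass (adjusted p = 0.439 by limma). The probes of Lyz2 therefore disagree on the call, and whether they tell Lyz2 from its close paralog Lyz1 was not tested.

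The Lyz2 call was kept when any single animal was left out (adjusted p from 0.00217 to 0.0388) and with the Cy5 signal alone, a setting added after seeing the data (-0.66, adjusted p = 0.0169). It was lost with each array centred on its median in place of loess (-0.48, adjusted p = 0.509), with array position within the pair as a term (-0.66, adjusted p = 0.102), and with control run 1 as the only control (-0.53 ± 0.19, adjusted p = 0.256). All 4 animals of exposed run 1 lay in position 3 of their slides. Their median Cy5 signals were 103, 108.5, 118 and 108, against 106 to 192 on control arrays. The part of overall signal in the Lyz2 difference was not tested.

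Adgre1 came next by p in exposed run 1, with 0.53, 0.55, 0.61 and 0.20. It had 0.67, 0.50, 1.74, 0.67, 0.57 and 1.01 in control run 1, 1.40, 1.24, 1.13, 0.74 and 1.62 in control run 2 and 0.50, 0.73, 0.87, 1.0 and 0.93 in control run 3. Animals of exposed run 1 lay at or below the low end of the controls, with some overlap with control runs 1 and 3. The difference of Adgre1 was -0.49 ± 0.15 (adjusted p = 0.0617 by limma). It passed in 6 of 43 alternatives, with array weights (-0.56, adjusted p = 0.0229), with only probes well above background on all arrays (-0.49, adjusted p = 0.0498), and without control animal 548, 549, 574 or 595 (adjusted p = 0.0456, 0.0465, 0.0280 and 0.0410). It was smallest with median centring (-0.37, adjusted p = 0.669).

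Timd4 had 0.57, 1.41, 1.03 and 1.18 in exposed run 1, a mean of 1.05 ± 0.35. The mean of Timd4 was 1.80 ± 0.48 in exposed run 2, 1.60 ± 0.42 in exposed run 3, 1.55 ± 0.37 in control run 1, 1.95 ± 0.59 in control run 2 and 1.53 ± 0.32 in control run 3 (SD). Exposed run 1 had the lowest mean, within the range of the control animals except for animal 176. The difference of Timd4 was -0.61 ± 0.21 and did not pass (adjusted p = 0.0829 by limma). It passed in 3 of 43 alternatives, without background correction (-0.62, adjusted p = 0.0389), in the deposited value table (-0.59, adjusted p = 0.0433) and without control animal 574 (-0.69, adjusted p = 0.0222). It was smallest with the scanner's processed signals (-0.19, adjusted p = 0.852).

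The other 6 genes did not pass in exposed run 1. Their differences were -0.38 ± 0.20 for C1qa (adjusted p = 0.320), -0.34 ± 0.31 for Marco (0.612), -0.23 ± 0.19 for Clec4f (0.567), -0.22 ± 0.13 for Csf1r (0.361), -0.20 ± 0.28 for Vsig4 (0.758) and -0.18 ± 0.23 for Cd5l (0.739), all by limma. All 9 estimates were below 0 with a median of -0.34, while 60.1% of all genes were below 0 with a median of -0.04. With the scanner's processed signals in place of the background correction used here, 5 of the 9 turned above 0, namely Clec4f, Cd5l, Marco, Vsig4 and C1qa. For 3 of the genes the sign rested on animal 176, without which the difference was 0.03 for Clec4f, 0.11 for Cd5l and 0.08 for Vsig4. All 9 estimates were also below 0 in control run 1 set against control runs 2 and 3, with a median of -0.16. Of all genes, 49.4% were below 0 in that contrast between control animals. The 9 genes moved together among animals, so their signs are not 9 separate observations.

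In exposed runs 2 and 3, 0 of 9 genes passed when set against the controls, where 0.0169% and 0.131% of all tested probes passed by limma. At an unadjusted p under 0.05 there were 2433 and 3089 probes, and 0 of the 9 genes. The differences lay between -0.24 and 0.17 in run 2 (median -0.09) and between -0.28 and 0.19 in run 3 (median 0.00). Adgre1 had the lowest of both, -0.24 ± 0.14 and -0.28 ± 0.14.

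Among the 3 exposed runs, 0 of 9 genes passed limma's moderated F test, where 4.13% of all tested probes passed. The smallest p of the 9 were those of Lyz2 (adjusted p = 0.0576) and Timd4 (adjusted p = 0.187) by that test. Among the 3 control runs, 0 of 9 passed the F test, where 0.089% of all tested probes passed, and Adgre1 had the smallest p (adjusted p = 0.679). Control run 1 against control runs 2 and 3, a contrast added after seeing the data, gave 0 of 9. There 0.0424% of all tested probes passed (0.0381% higher in control run 1), and the estimates of all 9 genes were below 0. A contrast of exposed run 1 with exposed runs 2 and 3, added after seeing the data, was called for 1 of 9 genes, where 6.61% of all tested probes passed. That gene was Lyz2, with -0.62 ± 0.17 (adjusted p = 0.0265 by limma).

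**Figure D2:**
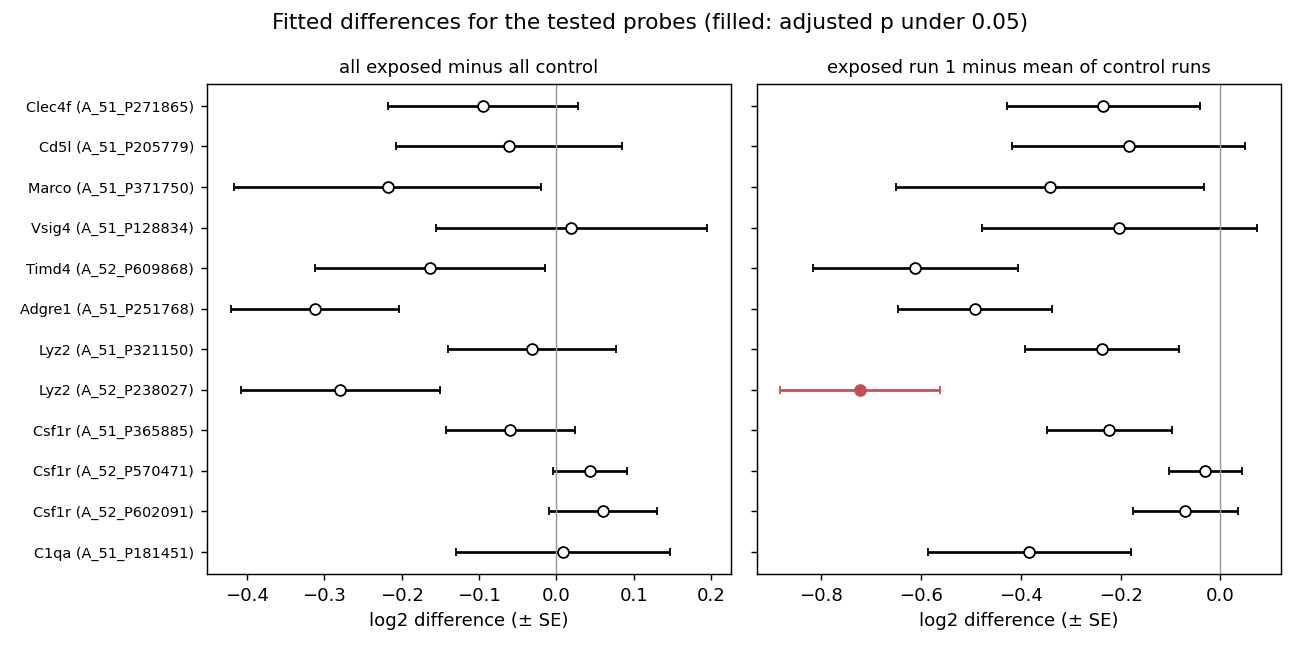
Fitted log2 differences (points) with their SE (bars) for the 12 tested probes of 9 genes, for all exposed minus all control animals and for exposed run 1 minus the mean of the 3 control runs. Of these, only A_52_P238027 of Lyz2 passed the threshold, at -0.72 in exposed run 1.

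Genes of related roles were counted in exposed run 1 in the same fit, from lists that share some genes. Their counts stand beside 3.19% of all tested probes lower and 1.6% higher in the same contrast, and a single call in a list this short is not read as a change of the list. With control run 1 as the only control, where 0.246% of all tested probes passed, 0 genes passed by limma in each list named here except the stellate cell markers, with 1 of 12. Of 12 other resident Kupffer cell genes 2 fell, Siglec1, a sialic acid binding receptor (-0.63 ± 0.16, adjusted p = 0.0233), and Cfp, the complement regulator properdin (-0.49 ± 0.13, adjusted p = 0.0307). Of 16 general macrophage genes 2 fell, Ctss, a lysosomal cysteine protease (-0.59 ± 0.13, adjusted p = 0.00925), and Mpeg1, a pore-forming protein (-0.47 ± 0.13, adjusted p = 0.0376). Neither list had a gene that rose. The median difference was -0.24 over the resident Kupffer cell genes and -0.21 over the general macrophage genes, beside -0.04 over all genes.

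Of 17 lysosome genes, many of them used by all cells, 4 fell and none rose. They were Ctss and the lysosomal enzyme genes Hexa (-0.40 ± 0.07, adjusted p = 0.00147), Ctsb (-0.60 ± 0.12, adjusted p = 0.00249) and Ctsz (-0.30 ± 0.09, adjusted p = 0.0408). Of 15 genes for the uptake of dying cells, the lipid transporter gene Abca7 fell (-0.43 ± 0.11, adjusted p = 0.0233). Of 9 macrophage activation genes, the chitinase-like gene Chil3 rose (0.76 ± 0.17, adjusted p = 0.00684) and the interferon-induced chemokine gene Cxcl10 fell (-0.78 ± 0.20, adjusted p = 0.0196).

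In 4 further lists 0 genes passed by limma. Among 10 CSF1 receptor ligands and macrophage transcription factors the smallest p was that of Maf (-0.26 ± 0.09, adjusted p = 0.109). Among 8 genes of the C1 complex, its inhibitor and C1q binding proteins it was that of the chaperone gene Calr (0.29 ± 0.11, adjusted p = 0.138). Among 12 other scavenger receptors it was that of Scarb2 (0.16 ± 0.06, adjusted p = 0.138), and among 10 complement and Fc receptors that of Fcgr1 (-0.35 ± 0.12, adjusted p = 0.0888).

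Single markers of other liver cells also passed in exposed run 1. Of 14 liver endothelial markers 1 fell, Eng (-0.34 ± 0.10, adjusted p = 0.0364), with all 14 estimates below 0 and a median of -0.30. Of 12 stellate cell markers 3 fell, the collagen genes Col3a1 (-0.98 ± 0.19, adjusted p = 0.00323) and Col1a1 (-0.61 ± 0.18, adjusted p = 0.0433) and the growth factor receptor gene Pdgfrb (-0.44 ± 0.11, adjusted p = 0.0212), with a median over the list of -0.33. Of 6 bile duct markers Spp1 fell (-0.59 ± 0.17, adjusted p = 0.0462), and of 9 hepatocyte markers Ttr fell (-1.14 ± 0.25, adjusted p = 0.00802). The hepatocyte list went both ways, with 5 of 9 estimates below 0, a median of -0.10 and a highest of 0.24, and against control run 1 alone 3 of 9 were below 0 with a median of 0.06. Their part in the differences of the macrophage markers was not tested.

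With each gene centred over all animals, the mean of the 9 macrophage markers lay between -0.63 and -0.02 in exposed run 1 and between -0.57 and 0.63 in controls. The mean of the endothelial markers lay between -0.81 and 0.03 in exposed run 1 and between -0.73 and 0.42 in controls, and that of the stellate cell markers between -0.90 and -0.07 in exposed run 1 and between -0.56 and 0.31 in controls. Neutrophils also make Lyz2, and of 13 neutrophil markers 4 were tested, with a mean between 0.10 and 0.35 in exposed run 1 and between -0.45 and 0.37 in controls. Of the monocyte (6 tested), neutrophil (4), T and NK cell (10), B cell (4), dendritic cell (4) and red blood cell (3) markers, 0 passed in exposed run 1 by limma. Estimates were below 0 for all T and NK cell, B cell, dendritic cell and red blood cell markers. They were below 0 for 5 of 6 monocyte and 1 of 4 neutrophil markers, beside 60.1% of all genes. Between all exposed and all control livers 0 genes passed in each list named here, and the smallest adjusted p was that of Sox9, a bile duct marker (-0.45 ± 0.09, adjusted p = 0.0651 by limma).

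**Figure D3:**
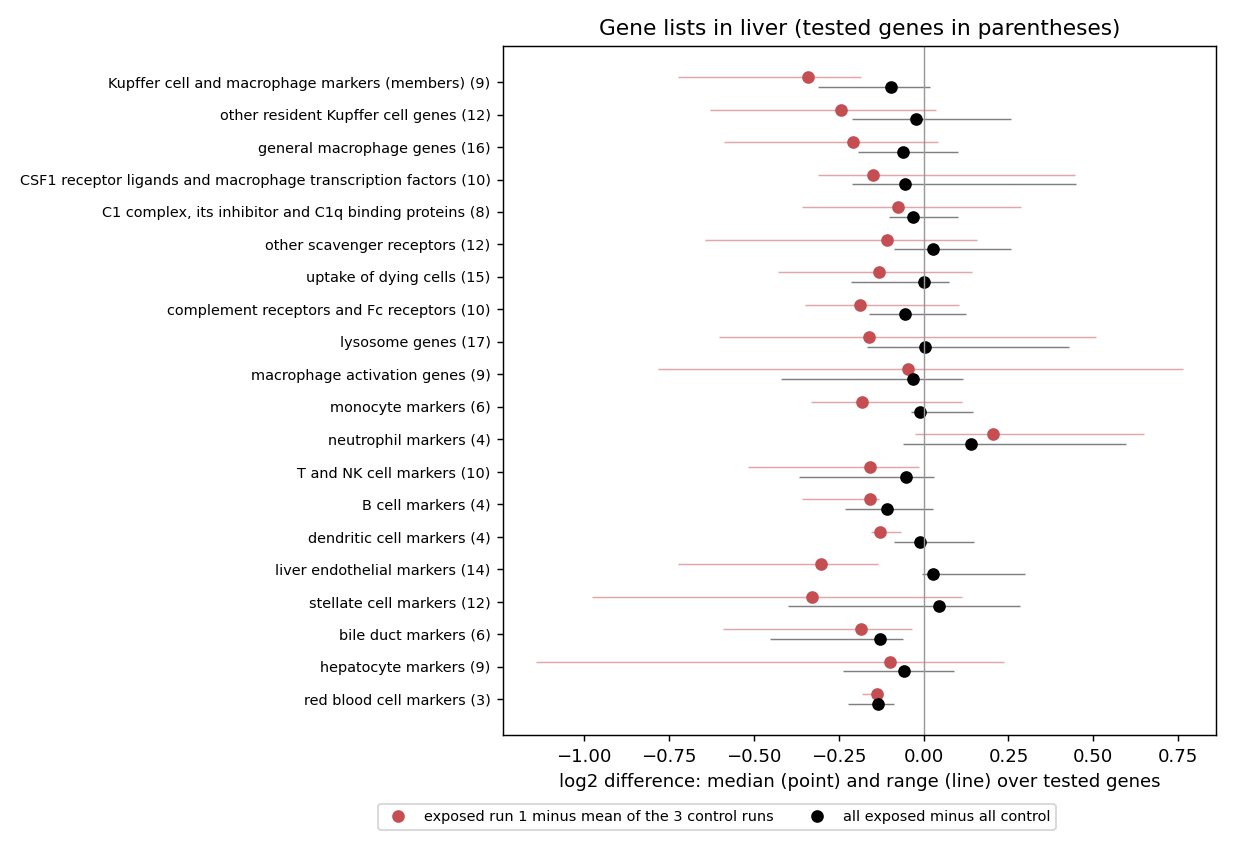
Median and range of the fitted log2 differences over the tested genes of each list, for exposed run 1 minus the mean of the 3 control runs and for all exposed minus all control animals. In exposed run 1 the median of the macrophage markers stands at -0.34, next to -0.30 for endothelial and -0.33 for stellate cell markers.

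Across animals the 9 genes were high or low together, in both groups. In 6 of 30 animals (exposed 197 and 212, and controls 549, 570, 573 and 600) every gene lay above its own mean over all animals. In 7 animals (exposed 176 and 193, and controls 547, 548, 551, 574 and 595) every measured gene lay below it. The mean of the 9 centred genes was lowest in exposed animal 176 (-0.63), control animal 574 (-0.57) and control animal 595 (-0.54). It was highest in control animal 549 (0.63), exposed animal 197 (0.54) and control animal 570 (0.49).

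**Figure D4:**
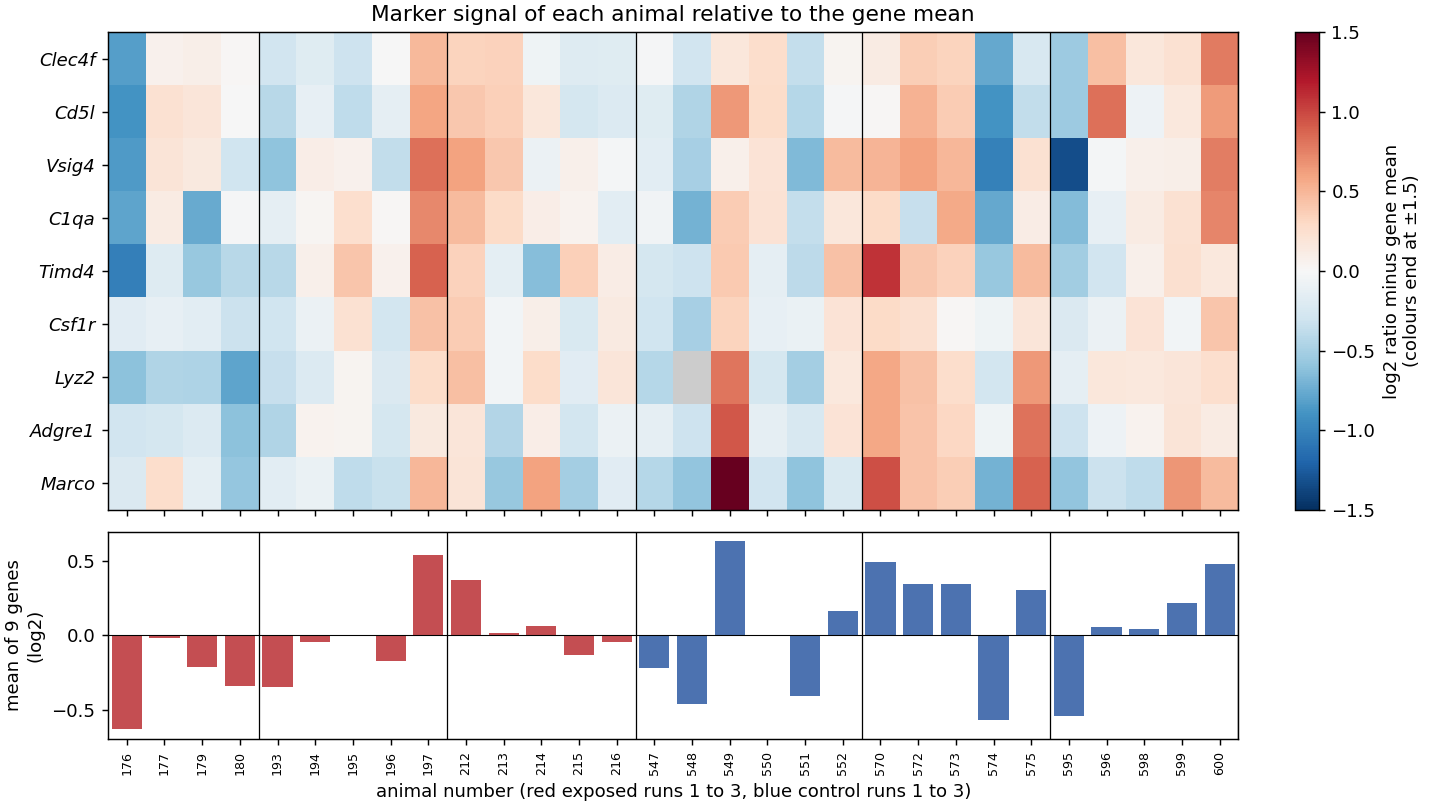
Log2 ratio of each of 9 genes (rows) minus its mean over all animals, for 30 animals (columns) in exposed runs 1 to 3 and then control runs 1 to 3, with the mean of the 9 genes in each animal below. That mean runs from -0.63 in exposed animal 176 to 0.63 in control animal 549.

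All 36 pairs of the 9 genes were positively correlated over the 30 animals (29 for pairs with Lyz2). Pearson's r had a median of 0.62 and a range of 0.29 to 0.94, and Spearman's rho a median of 0.63 and a range of 0.37 to 0.95. By two-sided permutation with 100000 resamples and Benjamini-Hochberg adjustment over the 36 pairs, 34 passed for r and 36 for rho. No such count is given for pairs of other genes, so these counts do not set the markers apart from other genes. Fitting 9 slide means to the 30 arrays took up 34.4% of the variance in the mean of the 9 markers. That share is not corrected for the number of slides, so it holds spread within slides as well. Without the 2 animals farthest from the median of the first gene, r lay between 0.24 and 0.91, and after removing slide and group means between 0.28 and 0.94. Within exposed animals r lay between 0.10 and 0.97, and within controls between 0.30 and 0.92. Over the 25 arrays of the newer scanner software it lay between 0.27 and 0.94, and the 5 arrays of the older version are too few for a value of their own. The median r was 0.42 with the scanner's processed signals and 0.40 with median centring.

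The highest correlation was that of Clec4f and Cd5l, with r = 0.94 and rho = 0.95. Both had a permutation p of 1e-05, the smallest these resamples can give (adjusted p = 3.27e-05 for r). Clec4f also had r = 0.83 with Vsig4 and 0.72 with C1qa. Adgre1 had r = 0.87 with Lyz2, 0.84 with Marco and 0.73 with Csf1r, and Lyz2 and Csf1r had 0.82. The pairs that did not pass for r were Clec4f with Adgre1 (r = 0.29, adjusted permutation p = 0.115) and Cd5l with Adgre1 (r = 0.35, adjusted permutation p = 0.0599). Marco had r = 0.40 with Clec4f, below its r with Adgre1.

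**Figure D5:**
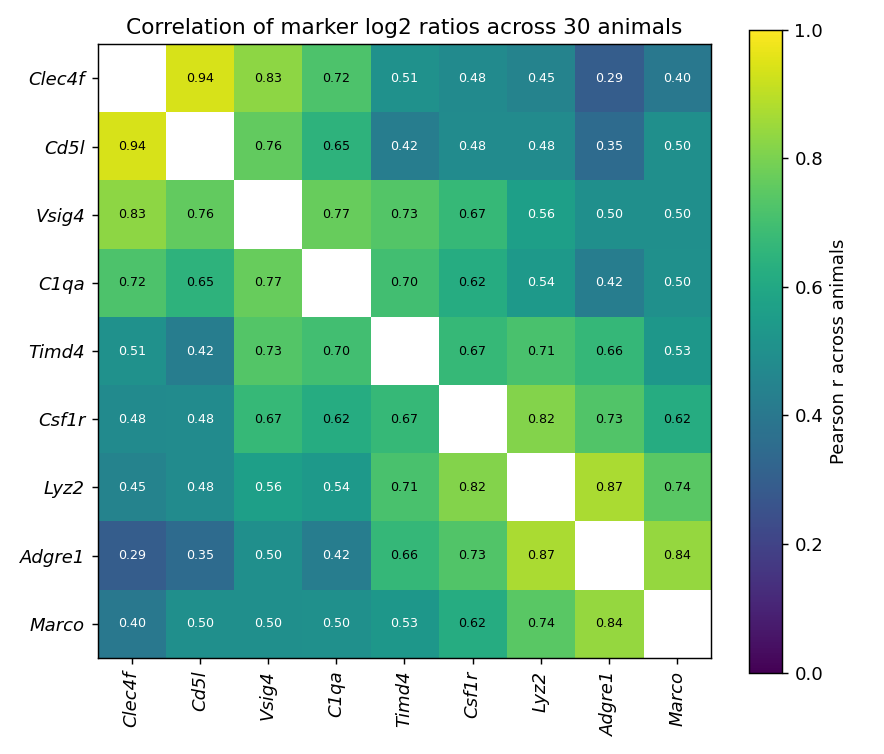
Pearson's r between the log2 ratios of each pair of 9 genes over 30 animals, with r printed in each cell. The values run from 0.29 for Clec4f with Adgre1 to 0.94 for Clec4f with Cd5l.

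The genes whose pattern was most like the mean of the 9 markers were sought among 12216 other genes over the 30 animals. They were Treml4 (r = 0.92), Igsf6 (r = 0.92), Pilra (r = 0.90), Cd300e (r = 0.90) and Clec4a2 (r = 0.89). After removing slide and group means, r was 0.94 for Treml4, 0.90 for Igsf6, 0.85 for Pilra, 0.89 for Cd300e and 0.87 for Clec4a2. The median r over all other genes was 0.16 and the 99th percentile 0.70. These values are a description, since all genes share the arrays and their normalisation.

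List means followed the mean of the markers to different degrees over the 30 animals. For general macrophage genes r was 0.91, for other resident Kupffer cell genes 0.90, for CSF1 receptor ligands and transcription factors 0.81 and for complement and Fc receptors 0.79. For liver endothelial markers r was 0.75, for T and NK cell markers 0.64, for hepatocyte markers 0.58, for stellate cell markers 0.55, for monocyte markers 0.35 and for neutrophil markers 0.18. After removing slide and group means, r was 0.94 for general macrophage genes and 0.90 for other resident Kupffer cell genes, 0.81 for T and NK cell, 0.77 for endothelial, 0.74 for hepatocyte, 0.68 for monocyte, 0.61 for stellate cell and 0.10 for neutrophil markers, so that most of the other cell types came closer to the macrophage lists. Of 12 other resident Kupffer cell genes 6, and of 16 general macrophage genes 7, lay above the 99th percentile of all genes, as did 3 of 10 T and NK cell markers, 3 of 12 other scavenger receptors, 2 of 14 endothelial and 0 of 9 hepatocyte markers. The mean of the markers had r = 0.21 with the median Cy5 signal of the array and r = 0.31 with the median Cy3 signal.

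At the probe that represents each gene, most of the markers varied more than most other tested probes did. The SD within runs (log2) was 0.64 for Marco, the 99.1th percentile of all tested probes, 0.55 for Vsig4 (98.3th), 0.47 for Cd5l (96.6th) and 0.43 for Timd4 (95.3th). It was 0.43 for C1qa (95.1th), 0.38 for Clec4f (93.2th), 0.32 for Lyz2 (89.0th), 0.31 for Adgre1 (87.9th) and 0.25 for Csf1r (78.7th). At the other tested probes it was 0.32 for Lyz2 (88.8th), and 0.21 (66.4th) and 0.12 (13.6th) for Csf1r. Median raw Cy3 at the representing probes was 571.25 or more for Csf1r, Adgre1 and Lyz2, the genes with the smallest SDs there. For the other genes it was 36.5 (Timd4) to 122.5 (Clec4f). Yet A_52_P570471 of Csf1r, with a median raw Cy3 of 50.75, had the smallest SD of all. The part of a dim reference in the SDs was not tested. The SDs within runs were not corrected for slide. Fitting 9 slide means to the 30 arrays took up 26.9% (Lyz2) to 56.8% (Timd4) of the variance at the representing probes. These shares are not corrected for the number of slides. So many means take up part of the variance even where slides do not differ, so the shares do not measure slide differences alone. The number of arrays limits the precision accordingly, with an SE of the exposed minus control difference between 0.08 for Csf1r and 0.20 for Marco.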

How the data were processed

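Liver RNA of 30 mice was hybridised to 2-colour Agilent arrays, liver in Cy5 and a universal mouse reference in Cy3, with no dye swap. The deposited scanner files hold spot intensity values, extracted with software version 10.1.1.1 for 5 arrays and 10.7.3.1 for 25, per the file headers. The authors also deposited a value table on a log2 scale, with column medians between -0.05 and -0.02, whose normalisation is not given in the sources used here. Each of its 30 columns correlated best with the log10 ratios of Cy5 over Cy3 of its own array, taken from the deposited scanner files (r from 0.979 to 0.993 over 14296 bright spots), which sets its direction. It served as an alternative.

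Median signals were background-corrected (normexp, offset 50) and normalised by loess within arrays with limma 3.58.1 in R 4.3.3. Control spots had weight 0, outlier spots were left out and spots of 1 probe were averaged. A probe was tested if its Cy5 signal was marked as well above background in 14 or more of the 30 livers. Models of 2 group means or 6 run means had the slide as a random block (correlation 0.16 and 0.15). A run starts after a gap of more than 10 in animal number. The script was tested on simulated data. Correlations between pairs of markers were computed with numpy 2.4.6, with ranks from scipy 1.17.1. Those with the mean of the markers were computed in R. Where nothing says that animals were independent cohorts, p-values measure only the spread between these samples.

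Named genes were all members with every probe, up to 4 genes past the threshold by smallest p (otherwise the 1 with the smallest p) from each other list, and the 5 other genes most like the mean of the members. The members and lists were chosen with earlier results of these data known. Alternatives covered background, normalisation, filters, slide, position, array weights, software version and each animal left out. Array headers name another genome build than the RefSeq tables, so no array coordinates were used.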

Additional observations from a re-analysis of the deposited data

Results flagged for a closer look

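Of 72 sets of 4 to 6 values of 1 probe in 1 run, 6 held an animal far from the rest, and chance alone marks about 1 in 20. In exposed run 1, animal 176 had a Clec4f log2 ratio of 4.39, against 5.25 to 5.31 in the others. In exposed run 2, animal 197 had 0.38 for Csf1r at A_52_P570471, against -0.00 to 0.08. In control run 1, animal 549 had 6.46 for Marco, against 3.91 to 4.29. In control run 2, animal 574 had 2.79 for Vsig4, against 4.05 to 4.42, and animal 572 had 0.14 for Csf1r at A_52_P602091, against 0.39 to 0.49. In control run 3, animal 595 had 1.23 for Lyz2 at A_52_P238027, against 1.53 to 1.61. What set these animals apart was not tested.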

How the results depend on the processing

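No paired analysis was possible by replicate number because the exposed and control animals share none; the slide, which held both groups in 7 of 9 cases, was a random block throughout and a fixed block as an alternative. The count of 0 of 9 genes between exposed and control livers, among control runs, in exposed runs 2 and 3 and in the reference channel was the same under all alternatives run. In exposed run 1 the count of 1 became 2 without background correction, in the deposited value table, with only probes well above background on all arrays and with array weights. It became 0 with median centring, with array position as a term and with control run 1 as the only control, and lay between 1 and 3 with 1 animal left out (2 without control 548, 549 or 595, and 3 without control 574). The count of 0 among exposed runs became 1 with only probes well above background on all arrays and with array weights, and lay between 0 and 1 with 1 animal left out (1 without exposed 215, control 549 or control 574). The median correlation of 0.62 became 0.42 with processed signals and 0.40 with median centring. The causes were not tested.

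Of 1102 values of single probes under an alternative, 1036 kept direction and side of the threshold, 9 newly passed, 3 no longer passed and 54 had the opposite sign, 0 of them past the threshold. In exposed run 1, processed signals gave 0.26 for Clec4f, 0.23 for Cd5l, 0.115 for Marco, 0.22 for Vsig4 and 0.37 for C1qa. No background correction gave 0.012 for Clec4f, 0.058 for Cd5l, 8.8e-05 for Vsig4 and 0.037 for Csf1r at A_52_P570471. With the deposited values there were 0.051 for Clec4f, 0.115 for Cd5l, 0.0086 for Vsig4 and 0.031 for Csf1r at A_52_P570471. Cy5 alone gave 0.032 for Csf1r at A_52_P570471, and control run 1 as the only control 0.025 at that probe and 0.0032 at A_52_P602091. Between all exposed and all control livers, processed signals gave -0.22 for Vsig4 and -0.15 for C1qa, array weights 0.00047 for Lyz2 at A_51_P321150, a fixed slide block -0.055 for C1qa and the newer software alone -0.037 for C1qa. Cy5 alone, chosen after seeing the data, gave -0.015 for Vsig4, 0.018 for Lyz2 at A_51_P321150, -0.038 for Csf1r at A_52_P602091 and -0.045 for C1qa. Without the animals of exposed run 1, also chosen after seeing the data, the values were 0.0039 for Timd4, 0.047 for Lyz2 at A_51_P321150 and 0.00099 for Csf1r.

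With 1 animal left out, exposed minus control lay between -0.046 and 0.080 for C1qa, -0.12 and 0.021 for Cd5l, -0.072 and 0.015 for Lyz2 at A_51_P321150 and -0.071 and 0.10 for Vsig4. In exposed run 1 it lay between -0.34 and 0.11 for Cd5l, -0.37 and 0.029 for Clec4f, -0.051 and 0.0038 for Csf1r at A_52_P570471 and -0.39 and 0.076 for Vsig4. Over all probes, the alternatives gave 0 to 166 calls between exposed and control livers (4 here), 125 to 1572 among exposed runs (976), 3 to 30 among control runs (21), and in exposed runs 1, 2 and 3 58 to 1983 (1132), 0 to 122 (4) and 0 to 554 (31). Dim Cy3 spots limit the ratios of Timd4, Vsig4 and C1qa. For Clec4f, Cd5l and Marco, Cy3 was well above background on 30 of 30 arrays. Their median raw Cy3 signals were still low, at 122.5, 110.75 and 90, against 571.25 for Csf1r at A_51_P365885.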
